A study of Mus musculus with 9 samples.

Results

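The monocyte lineage genes described here are 10 transcripts that mark bone marrow monocytes: Csf1r, Irf8, Klf4, F13a1, Ms4a6c, Cd14, Adgre4, Treml4, Spn and Cd68. They were chosen by gene symbol, and each matched 1 row of a table of 56980 genes. All 10 were among the 16576 genes with enough counts to test. Bulk RNA was sequenced from homogenised trabecular bone, labelled bone marrow, of wild-type C57BL/6 mice described as female, with age as the only treatment named. There were 5 aged mice (20 months) and 4 young mice (3 months), each labelled a biological replicate, in a series on sensory innervation and ageing. Aged marrow was set against young marrow.

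Monocytes arise in the marrow from progenitors that depend on the CSF1 receptor and on the transcription factors PU.1, IRF8 and KLF4. Classical monocytes, rich in Ly6c and Ccr2, leave the marrow for inflamed tissue, and part of them become non-classical monocytes, which depend on Nr4a1 and patrol the vessel wall. In bulk marrow several of the 10 transcripts have other sources as well: F13a1 is also made by megakaryocytes, Irf8 by B cells and dendritic cells, Spn by most leukocytes, and Csf1r and Cd68 by macrophages and osteoclasts. In such samples fewer cells of a type and less RNA per cell cannot be told apart.

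The libraries held 19804883 to 23548594 estimated counts, and each of the 10 genes had at least 71 of them in every library. Aged 3, aged 4 and young 4 stood apart from the other 6 libraries, with 6.16% to 7.34% of counts from ribosomal protein genes against 3.19% to 3.45%, and are given apart below. The stated sex went against the data in 5 libraries. Counts of Xist, the transcript of the inactive X, were 21724, 15847, 7909, 8179 and 9 across aged 1 to 5, against 8, 4, 8 and 1 across young 1 to 4. For the Y-linked gene Ddx3y they were 0 in aged 1 to 4 and 1640 in aged 5, against 1721, 1345, 1620 and 888 across young 1 to 4. Aged 5 is thus the only aged library that shares Y-linked expression with the young ones, and age and sex chromosome transcripts cannot be told apart in the other 4. Neutrophil, erythroid and B cell markers of marrow were present in every library, and no marker on the cell type lists was without counts in all of them.

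Most of the 10 transcripts had higher values in aged than in young marrow, and none passed edgeR's test over all genes. In CPM (counts brought to a common library total with trimmed mean of M-values factors), the log2 fold change of aged over young was above 0 for 9 of 10, with a median of 0.56. Of all genes tested 53.5% were above 0, and their median was 0.03. Scaling by library totals or upper quartile put all 10 above 0. The quasi-likelihood test of edgeR called 0 of the 10 at an adjusted p under 0.05, as it called 0 of 16576 genes (0%), and limma-voom called 0 as well. DESeq2 on the same counts called 360 genes and 1 of the 10, Cd14. At an unadjusted p under 0.05, 4 of the 10 were higher in aged marrow (Cd14, Klf4, Ms4a6c and Adgre4), against 4.15% of all genes, and none was lower, against 4.64%. By the authors' deposited table Cd14 alone of the 10 had an adjusted p under 0.05, against 0.527% of all rows and 1.66% of the genes tested here. Every aged library was above every young library for 2 of the 10, Cd14 and Klf4, which 1.67% of all genes did in that direction. The 10 genes were picked with earlier results of these libraries known, so these counts are descriptions.

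**Figure D1:**
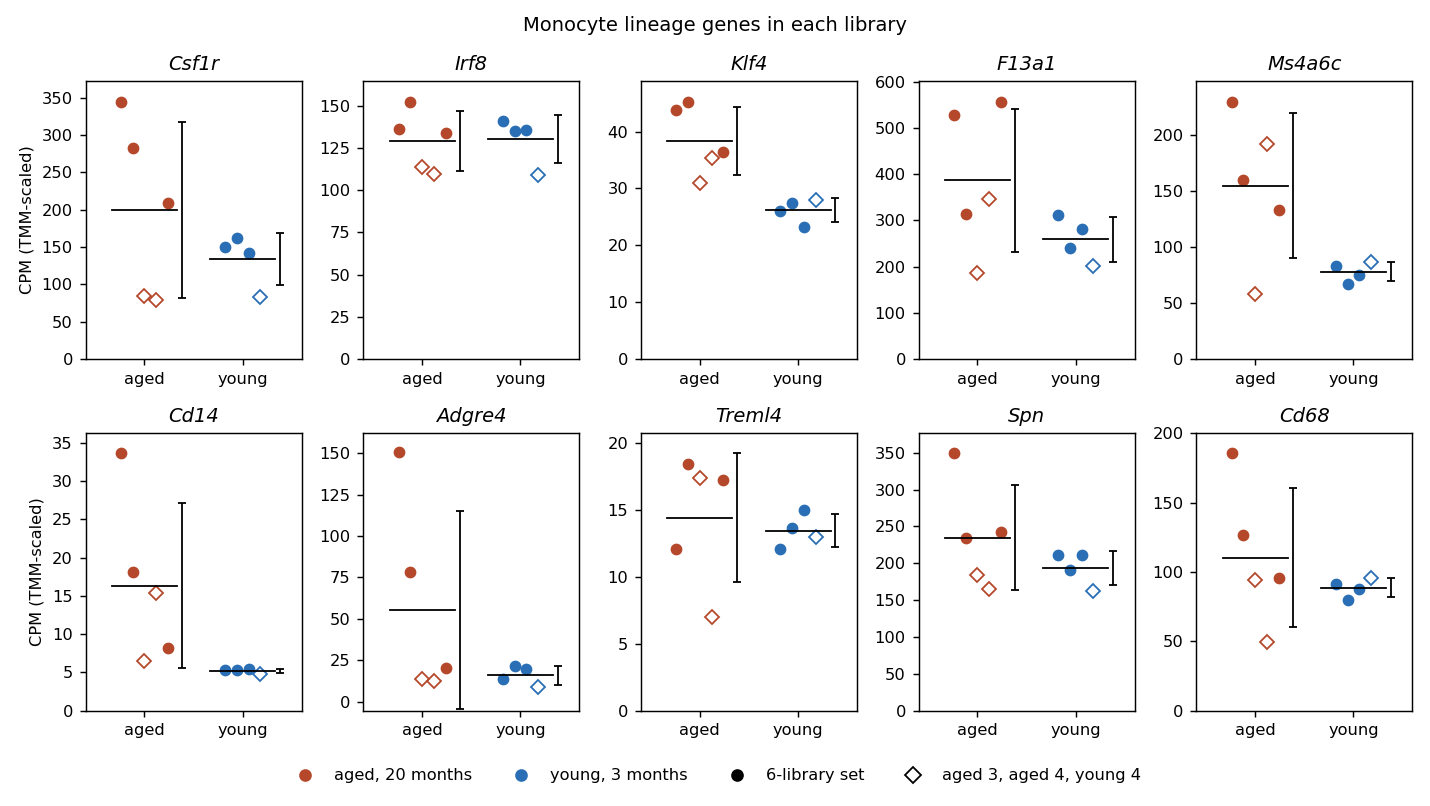
CPM of each of the 10 genes in every library, aged left and young right; filled circles are the 6-library set, open diamonds are aged 3, aged 4 and young 4, horizontal lines are group means and bars beside them the SD (n = 5 aged, n = 4 young). The aged libraries are spread far wider than the young ones for Adgre4, Cd14 and Csf1r, and the groups are fully separate for Cd14 and Klf4 alone among the 10.

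Per unit length, Cd68 had the highest level and Treml4 or Cd14 the lowest. The authors' TPM, which is scaled for transcript length, averaged 142 ± 89.2 in aged and 97.1 ± 22.1 in young libraries for Cd68 (SD, n = 5 and 4 here and below). The order in aged libraries then ran through Ms4a6c at 133 TPM, F13a1 at 120, Csf1r at 88.0, Spn at 78.6, Irf8 at 54.2, Adgre4 at 22.1, Cd14 at 15.1, Klf4 at 14.9 and Treml4 at 11.3. In young libraries it ran through F13a1 at 73.1 TPM, Ms4a6c at 60.7, Spn at 58.7, Irf8 at 52.0, Csf1r at 40.7, Treml4 at 9.89, Klf4 at 9.40, Adgre4 at 5.18 and Cd14 at 4.16. Neighbours in these orders differed by less than the larger of their SDs, except for the step between Irf8 and Adgre4 in aged libraries and the steps between Csf1r and Treml4 and between Klf4 and Adgre4 in young libraries. The TPM columns scale the libraries differently from CPM: the estimated count per TPM of Klf4 was 42.4 in aged 1 and 83.2 in young 4. For each of the 10 except Cd68 the highest ratios were those of aged 3, aged 4 and young 4. The ratio of Csf1r was spread wider, at 38.1 in aged 1 and 133 in young 4. Across young 1 to 3 it was 58.6, 76.2 and 84.8, against 59.3, 55.2 and 54.1 for Klf4. The cause of this was not tested, and the TPM level of Csf1r is uncertain. Comparisons of age below therefore use CPM.

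Csf1r, the receptor for CSF1 and IL-34 that keeps monocytes and macrophages alive, was high in 3 aged libraries and low in the 3 libraries that stood apart. It had 345, 282, 85.1, 78.4 and 209 CPM in aged 1 to 5, against 151, 162, 141 and 83.2 CPM in young 1 to 4. The groups overlapped, because aged 3 and aged 4 lay beside young 4. The log2 fold change was 0.57 (SE 0.45, edgeR adjusted p = 0.919). Among aged 1, 2 and 5 and young 1 to 3 it was 0.89 (SE 0.18, edgeR adjusted p = 0.0694), and aged 3 and 4 differed from young 4 by −0.03 in log2 CPM. A term for whether the age difference differed between the 2 sets of libraries, added after the data were seen, was −0.91 (SE 0.32, edgeR adjusted p = 0.925 over all genes). The Csf1r counts were not whole numbers in any library, as when a quantifier shares reads out between genes, which was not tested.

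Other genes followed the Csf1r profile over the 9 libraries closely. By the mean absolute difference in centred log2 CPM, the nearest of 14820 genes outside the 10 were Plxnb2, a plexin receptor gene, at 0.0703, B4galt5 at 0.101, Mllt6 at 0.109, Fam219a at 0.110 and Tns3, a tensin gene, at 0.115. The median over those genes was 0.715. This likeness includes the contrast between the 2 sets of libraries.

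The transcription factors differed from each other. Klf4, a zinc-finger factor needed for classical monocyte differentiation in mice, had 43.8, 45.3, 31.0, 35.4 and 36.4 CPM in aged 1 to 5, against 26.0, 27.5, 23.3 and 28.0 CPM in young 1 to 4. Every aged library was above every young one, by a small margin between aged 3 and young 4. Its log2 fold change was 0.55 (SE 0.17, edgeR adjusted p = 0.351), and among the 6 libraries it was 0.72 (SE 0.12, adjusted p = 0.0694). Irf8, which directs progenitors to the monocyte and dendritic lineages and away from neutrophils, had 136, 152, 113, 110 and 134 CPM in aged 1 to 5, against 141, 135, 136 and 109 CPM in young 1 to 4. The groups overlapped almost fully, and both held lower values in the libraries that stood apart. The Irf8 log2 fold change was −0.01 (SE 0.17, edgeR adjusted p = 1.00), with a sign that flipped to 0.02 under scaling by library totals and to 0.0048 under upper quartile scaling.

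Of the classical monocyte genes, Cd14 had the widest separation. Cd14, the membrane co-receptor that hands lipopolysaccharide to TLR4, had 33.6, 18.1, 6.44, 15.4 and 8.17 CPM in aged 1 to 5, against 5.32, 5.31, 5.37 and 4.82 CPM in young 1 to 4. The young libraries lay within a narrow band and the aged ones above it at very different heights. The log2 fold change was 1.65 (SE 0.45, edgeR adjusted p = 0.320), from 71 to 780 counts per library. The authors' deposited table gave Cd14 a log2 fold change of 1.67 with an adjusted p of 0.0305. DESeq2 run here gave 1.66 with an adjusted p of 0.0239, so the call depends on the tool. In edgeR the Cd14 log2 fold change was 0.65 with a Y-linked term and 0.45 with Y-linked and library set terms. Aged 5 is the only aged library with Y-linked transcripts in these fits.

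Ms4a6c, a tetraspan membrane protein gene of the MS4A family, had 230, 159, 58.3, 191 and 133 CPM in aged 1 to 5, against 83.2, 67.0, 75.2 and 86.8 CPM in young 1 to 4. Aged 3 was below all young libraries and the other 4 aged libraries were above all of them. Its log2 fold change was 0.98 (SE 0.34, edgeR adjusted p = 0.404). The counts were not whole numbers, as when reads are shared out between genes, which was not tested, so the level is uncertain. F13a1, which encodes the A subunit of coagulation factor XIII, had 529, 313, 187, 346 and 557 CPM in aged 1 to 5, against 312, 241, 282 and 202 CPM in young 1 to 4. Aged 1 and aged 5 were far above the young libraries, aged 2 was level with young 1, and aged 3 was below all of them. The F13a1 log2 fold change was 0.58 (SE 0.32, edgeR adjusted p = 0.733). Summed over 7 megakaryocyte markers, the other known source of F13a1, levels were 737 to 2264 CPM in aged and 1021 to 1691 CPM in young libraries. The sum was lowest in aged 1 (737 CPM) and was 1599 CPM in aged 5, the 2 libraries highest in F13a1, and its part in the F13a1 values was not tested.

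The non-classical monocyte genes split, and upstream sequence is shown for the pair that differed most, Adgre4 and Treml4. The 250 bases before each start site, from RefSeq (GRCm38.p6, both on the plus strand, Adgre4 at chr17:55749734-55749983 and Treml4 at chr17:48264045-48264294), are given with motif matches in capitals:
Adgre4: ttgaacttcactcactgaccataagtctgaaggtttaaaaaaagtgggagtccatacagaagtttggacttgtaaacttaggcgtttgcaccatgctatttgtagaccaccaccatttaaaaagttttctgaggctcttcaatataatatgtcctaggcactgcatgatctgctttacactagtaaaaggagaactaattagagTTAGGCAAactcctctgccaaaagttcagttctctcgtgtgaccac
Treml4: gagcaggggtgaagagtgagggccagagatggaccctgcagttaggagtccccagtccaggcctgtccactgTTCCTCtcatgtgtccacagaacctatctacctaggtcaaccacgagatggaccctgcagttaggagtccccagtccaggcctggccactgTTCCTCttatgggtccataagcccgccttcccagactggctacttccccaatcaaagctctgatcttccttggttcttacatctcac
Capitals in Adgre4 mark TTNNGCAA, a C/EBP-type motif, and in Treml4 they mark TTCCTC, the reverse complement of GAGGAA, the core bound by PU.1 and other Ets factors. In windows of 300 bases (250 before to 50 after the start), searched on both strands, GAGGAA was found in 28.1% of 32544 promoters, TTNNGCAA in 10.8% and the Ets and IRF composite element, which can overlap GAGGAA, in 2.73%. Promoter windows of 8 of the 10 genes were searched, 10 in all, and Csf1r and Cd14 were left out of the search. Of these windows 5 held GAGGAA (4 genes: F13a1, Treml4, Adgre4 and Cd68), 2 held TTNNGCAA (Adgre4 and Cd68) and 2 held the composite (Spn and Cd68). These are letter matches in a window and not evidence of binding.

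Adgre4, an adhesion receptor gene of the F4/80 family, was high in just 2 aged libraries. It had 150, 78.2, 14.0, 12.8 and 20.5 CPM in aged 1 to 5, against 13.8, 21.6, 19.6 and 9.03 CPM in young 1 to 4. Aged 3, 4 and 5 lay within the range of the young libraries. The log2 fold change was 1.78 (SE 0.75, edgeR adjusted p = 0.532), the largest of the 10, and it was 0.97 without aged 1. Between aged 5 and young 1 to 3, all with Y-linked transcripts, it was 0.18 in log2 CPM (1 aged library, no test).

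Treml4, an immunoglobulin-like receptor gene of non-classical monocytes and some dendritic cells, did not share this pattern. It had 12.1, 18.4, 17.3, 7.01 and 17.2 CPM in aged 1 to 5, against 12.1, 13.6, 14.99 and 12.97 CPM in young 1 to 4. Aged 1, the highest library for Adgre4, was level with the lowest young library. The log2 fold change was 0.10 (SE 0.28, edgeR adjusted p = 1.00). Nearest to the Treml4 profile over 9 libraries were E430018J23Rik at 0.117, Scpep1 at 0.133, Fbln5 at 0.134, Msi2 at 0.148 and Hgs at 0.150 in mean absolute difference of centred log2 CPM, where the median gene was at 0.489.

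Spn, which encodes the surface sialoglycoprotein CD43, had 349, 234, 184, 166 and 242 CPM in aged 1 to 5, against 212, 190, 211 and 162 CPM in young 1 to 4. Aged 1 was above the rest and aged 3 and 4 were among the young values (log2 fold change 0.28, SE 0.24, edgeR adjusted p = 0.952). Summed T and NK cell markers, another source of Spn, were 127 to 241 CPM in aged and 103 to 175 CPM in young libraries, and their part in the Spn values was not tested. Cd68, a lysosomal membrane glycoprotein gene of monocytes, macrophages and osteoclasts, had 186, 127, 94.5, 49.2 and 95.3 CPM in aged 1 to 5, against 91.6, 79.5, 87.7 and 95.6 CPM in young 1 to 4. Aged 1 and 2 were above all young libraries and aged 4 was below all of them (log2 fold change 0.32, SE 0.32, edgeR adjusted p = 0.983).

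When the fit also held a term for the library set, all 10 log2 fold changes were above 0, as were 51.1% of all genes. Again 0 of the 10 were called by edgeR, against 0.615% of all genes called higher and 1.31% called lower. At an unadjusted p under 0.05, 7 of the 10 were higher, against 8.59% of all genes. Klf4 had a log2 fold change of 0.57 (SE 0.13, adjusted p = 0.0625) and Cd14 of 1.68 (SE 0.42, adjusted p = 0.0694). Ms4a6c and Adgre4 had 0.99 and 1.69 (SE 0.32 and 0.53, adjusted p = 0.134 and 0.122). The count of the 10 called rested on single libraries. Without aged 3, 4 were called (F13a1, Ms4a6c, Klf4 and Cd14, edgeR adjusted p = 0.0395, 0.0179, 0.0210 and 0.0237), as were 1633 of all 16480 genes tested there. Without aged 5, 3 were called (Klf4, Cd14 and Adgre4, edgeR adjusted p = 0.0478, 0.0289 and 0.0385), as were 712 of all 16341 genes. DESeq2 with this term called 5 (Csf1r, Ms4a6c, Klf4, Cd14 and Adgre4, adjusted p = 0.0497, 0.0256, 0.0023, 0.0014 and 0.0096), and it called 1604 of all 16576 genes.

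Among the 6 libraries alone the age differences of the 10 were larger, with a median log2 fold change of 0.73 against 0.03 over all genes. Aged 1, 2 and 5 were all above young 1 to 3 for 7 of the 10, which 13.7% of all genes were. Within this set edgeR called 0 of the 10 and 0.012% of all genes higher. Between aged 3 and 4 and young 4 the difference in log2 CPM was above 0 for 7 of the 10, against 44.7% of all genes, and the median was 0.17 against −0.06. Csf1r, Treml4 and Cd68 were below 0 there, at −0.03, −0.23 and −0.49. Between aged 5 and young 1 to 3 it was above 0 for 9 of the 10, against 50.9% of all genes, led by F13a1 at 1.01, Ms4a6c at 0.83 and Cd14 at 0.61. The last 2 comparisons have a single library in an arm and no test.

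**Figure D2:**
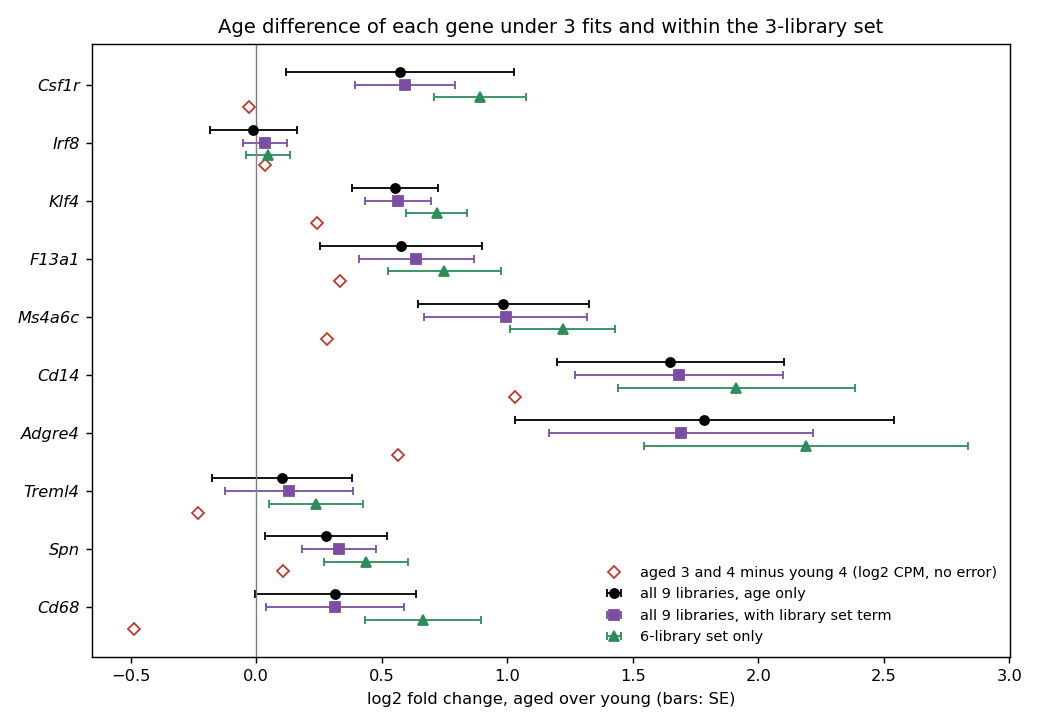
Log2 fold change of aged over young for each of the 10 genes with its SE, from the fit of all 9 libraries by age, the fit with the library set as a term and the fit of the 6-library set, and the difference in log2 CPM of aged 3 and 4 against young 4 (no error). Adgre4, Cd14 and Ms4a6c lie farthest to the right in all 3 fits, Irf8 and Treml4 lie near 0, and the values of the 3-library set lie lower than those of the 6 libraries for each gene.

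The wider classical monocyte programme pointed the same way by group, though not in every aged library. Of 20 other classical markers all 20 had a log2 fold change above 0 (median 0.70), 0 were called by age alone, and 4 were called with the library set term, under which 19 were above 0. Those that rose with the set term were Ms4a6d, Ly6c2, Vcan and Ly6c1, among 0.615% of all genes called higher there. The calls with this term rest on single libraries, since leaving out any one of aged 1, 2 or 4 or young 1 to 4 left 0 to 2 calls over all genes. Ms4a6d, a paralogue of Ms4a6c, had 103, 53.7, 9.56, 58.5 and 24.4 CPM in aged 1 to 5, against 7.07, 6.68, 7.18 and 7.13 CPM in young 1 to 4. Ly6c2, a surface antigen gene of classical monocytes, had 650, 976, 930, 813 and 773 CPM in aged 1 to 5, against 510, 399, 488 and 396 CPM in young 1 to 4. All aged libraries were above all young ones for both genes, by little for Ms4a6d in aged 3, and both genes have close paralogues, whose share of the reads was not tested. Aged 3 was the second highest library for Ly6c2, though it was below all young libraries for Ms4a6c and F13a1. Sources of Ly6c2 other than monocytes were not tested. Vcan, a matrix proteoglycan gene of classical monocytes, had 87.1, 39.4, 18.3, 47.4 and 127.5 CPM in aged 1 to 5, against 19.3, 14.1, 14.5 and 6.65 CPM in young 1 to 4. Clec4a3, a C-type lectin gene, had 223, 107, 26.6, 39.3 and 22.9 CPM in aged 1 to 5, against 15.9, 18.6, 19.3 and 21.9 CPM in young 1 to 4 (edgeR adjusted p = 0.352). Its aged values were all above the young ones, by little in aged 3 and aged 5. At the other end Lyz2, the lysozyme gene shared with neutrophils, averaged 4168 CPM in aged and 4043 CPM in young libraries and was named after its values were seen. Aged 3 was below every young library for some of these markers. Among them were Fn1, at 69.9 CPM against 195 to 528 CPM, and Plac8, at 143 CPM against 193 to 227 CPM. Both were named after their values were seen, and for others, such as Ly6c2, aged 3 was above every young library.

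The other non-classical markers split as Adgre4 and Treml4 did. Of 14, 9 were above 0 and 5 below, with a median of 0.07, 0 called by age alone and 1, Cd300e, called with the set term. Cd300e, an activating receptor gene of non-classical monocytes, had 231, 106, 2.51, 1.92 and 2.71 CPM in aged 1 to 5, against 1.22, 2.43, 0.966 and 0.204 CPM in young 1 to 4. Fcgr4, the Fc receptor gene that marks non-classical monocytes, had 844, 383, 49.1, 115 and 30.5 CPM in aged 1 to 5, against 22.6, 23.98, 25.4 and 37.3 CPM in young 1 to 4. Both were highest in aged 1, then in aged 2, as Adgre4 was, and the other 3 aged libraries were far lower. Gngt2, a G protein subunit gene, had 104, 57.6, 45.1, 52.2 and 19.7 CPM in aged 1 to 5, against 14.1, 16.3, 16.7 and 22.95 CPM in young 1 to 4. Apoc2, an apolipoprotein gene, had 14.1, 7.96, 8.52, 22.6 and 6.67 CPM in aged 1 to 5, against 1.67, 2.65, 2.94 and 10.5 CPM in young 1 to 4, and was highest in aged 4 (edgeR adjusted p = 0.497). Ear2 and Ace, also non-classical markers and named here after their values were seen, did not have their highest values in aged 1. Ear2 had 86.8 CPM in aged 1 and 151 to 528 CPM in the other aged libraries, against 96.1 to 339 CPM in young libraries, and Ace had 14.9 CPM in aged 1 and 10.6 to 29.0 CPM in the other aged libraries, against 10.9 to 26.3 CPM in young libraries.

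**Figure D3:**
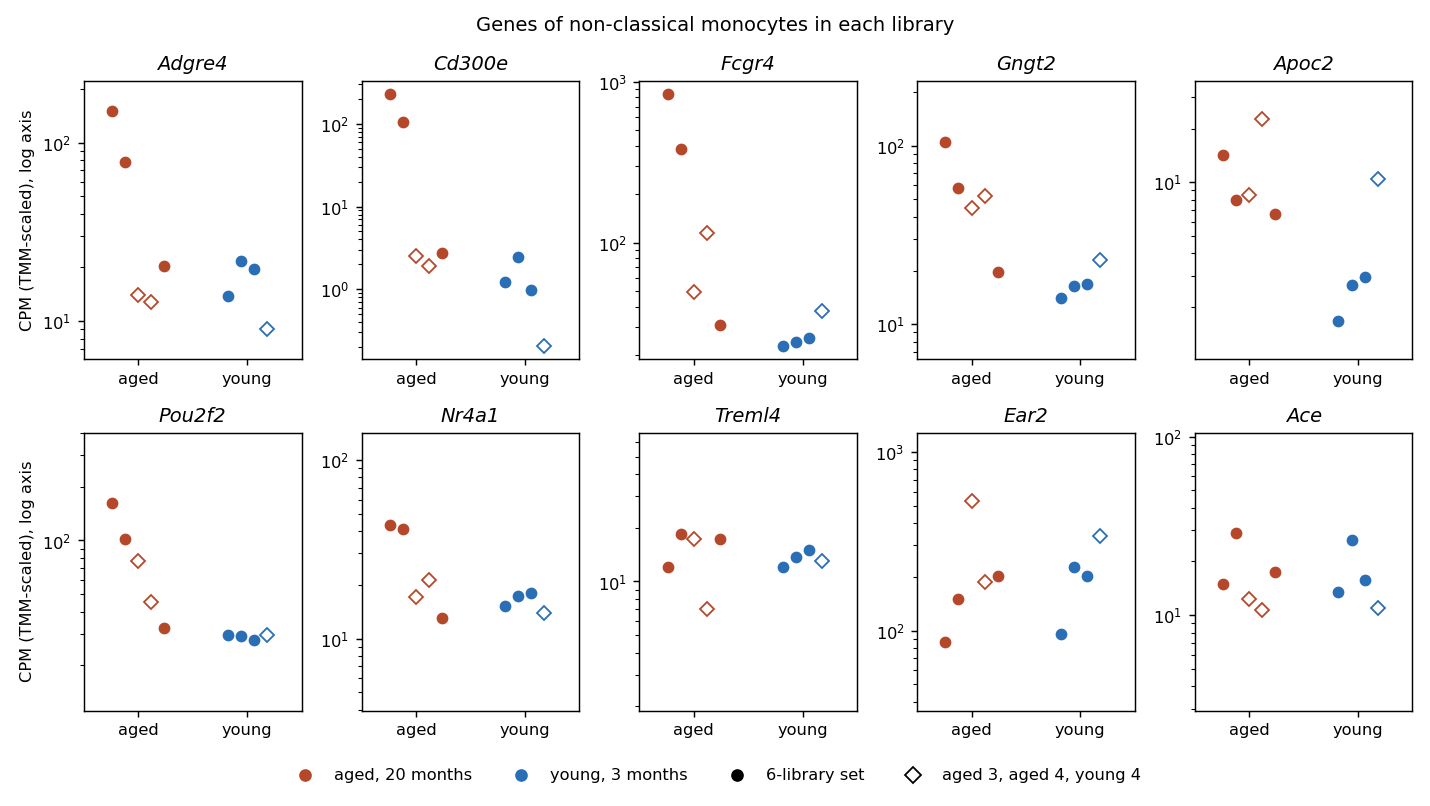
CPM on log axes of Adgre4, Cd300e, Fcgr4, Gngt2, Apoc2, Pou2f2, Nr4a1, Treml4, Ear2 and Ace in every library, aged left and young right; filled circles are the 6-library set and open diamonds aged 3, aged 4 and young 4. Aged 1 and aged 2 are the highest libraries for Adgre4, Cd300e, Fcgr4, Gngt2, Pou2f2 and Nr4a1 and are not so for Apoc2, Treml4, Ear2 or Ace.

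Among 17 other myeloid transcription factor genes all 17 were above 0 (median 0.35), and 0 were called in either fit. The sign of Maf and Cebpe turned with the set term, where 15 were above 0. Pou2f2, which encodes the octamer factor OCT2, had 162, 102, 77.2, 45.2 and 32.4 CPM in aged 1 to 5, against 29.6, 29.1, 27.7 and 29.4 CPM in young 1 to 4, without overlap (log2 fold change 1.54, edgeR adjusted p = 0.320). Nr4a1, the nuclear receptor needed for non-classical monocytes in mice, had 43.4, 41.1, 17.2, 21.4 and 12.96 CPM in aged 1 to 5, against 15.2, 17.3, 17.97 and 13.9 CPM in young 1 to 4 (edgeR adjusted p = 0.622). Egr2, an immediate early factor gene, averaged 2.63 CPM in aged and 1.25 CPM in young libraries (edgeR adjusted p = 0.497).

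Of the growth factor genes upstream of the lineage, 8 of 10 could be tested, 4 above and 4 below 0. Il34, which encodes the second ligand of the CSF1 receptor, had lower values in aged marrow, with 1.34, 3.69, 3.19, 4.62 and 4.60 CPM in aged 1 to 5, against 6.92, 9.47, 8.19 and 8.35 CPM in young 1 to 4. All aged libraries were below all young ones, which 2.76% of all genes were (log2 fold change −1.24, edgeR adjusted p = 0.320). Csf1, the other ligand, averaged 28.9 CPM in aged and 35.6 CPM in young libraries. Csf2rb2, a receptor subunit gene for IL-3 and a paralogue of Csf2rb, was called with the set term (log2 fold change 1.07, edgeR adjusted p = 0.0405) and not by age alone (0.74, adjusted p = 0.925), with 71.1, 53.8, 12.1, 21.9 and 60.0 CPM in aged 1 to 5 against 33.2, 33.5, 32.6 and 5.84 CPM in young 1 to 4. Csf2rb and Csf2ra, subunits of the GM-CSF receptor, averaged 185 and 163 CPM in aged and 113 CPM each in young libraries (edgeR adjusted p = 0.907 and 0.952).

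Partners of CD14 in lipopolysaccharide signalling had small positive values. Of 16, 14 were above 0 (median 0.41), and 0 were called in either fit. Myd88, the adaptor of most Toll-like receptors, averaged 91.1 CPM in aged and 60.3 CPM in young libraries (log2 fold change 0.60, edgeR adjusted p = 0.505). Ly96, which encodes the TLR4 partner MD-2, averaged 4.42 CPM in aged and 2.27 CPM in young libraries, and the kinase gene Irak4 averaged 41.2 and 30.8 CPM (adjusted p = 0.682 and 0.671). Ticam1, the adaptor TRIF, averaged 15.02 CPM in aged and 11.05 CPM in young libraries (adjusted p = 0.716).

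**Figure D4:**
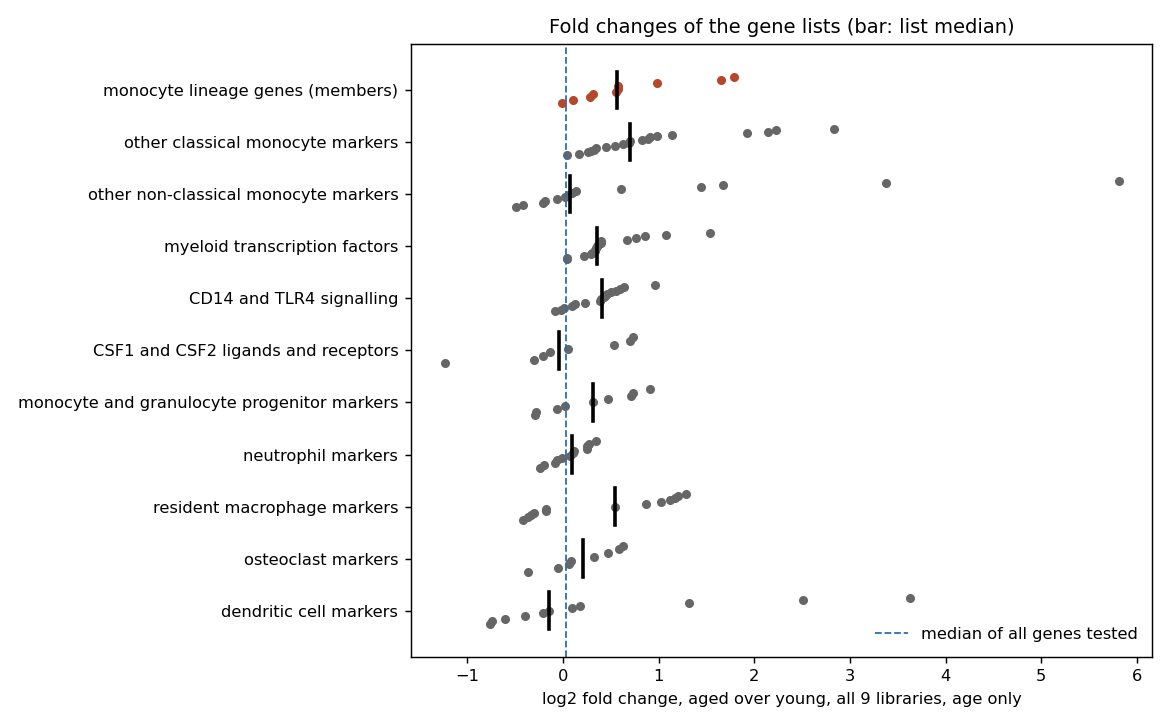
Log2 fold change of aged over young, all 9 libraries by age alone, for every tested gene of the 10 monocyte lineage genes and of 10 other lists, with the list median as a bar and the median of all genes tested as a dashed line. The classical markers lie wholly to the right of 0, the non-classical markers reach from below 0 to 5.81 for Cd300e, and the neutrophil markers lie around 0.

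Markers of other cells that express these transcripts moved in part with them, and their part in the results was not tested. Summed over 13 resident macrophage markers, levels were 2629, 1812, 1678, 964 and 915 CPM in aged 1 to 5, against 943, 1039, 1104 and 1333 CPM in young 1 to 4, so that aged 1 and aged 2, where Csf1r and Cd68 were highest, also led in these. Of these markers 7 were above 0 and 6 below, with 0 called. Mrc1, Cd163 and Vcam1, named after their values were seen, were low in aged 1 and 2, which thus did not lead in every marker. They had 47.4 and 81.5, 8.33 and 13.4, and 117 and 186 CPM there. In young libraries they had 96.4 to 138, 23.2 to 38.1 and 262 to 365 CPM. Dendritic cell markers summed to 144 to 353 CPM in aged and 137 to 156 CPM in young libraries, with 5 of 11 above 0, and osteoclast markers to 706 to 1116 CPM and 637 to 833 CPM, with 6 of 8 tested above 0. Neutrophil markers, 7 of 12 above 0, summed to 16849 to 76360 CPM in aged and 24578 to 56350 CPM in young libraries. Of 9 progenitor markers 6 were above 0 (median 0.31), with sums of 2430 to 7541 CPM in aged and 2516 to 3878 CPM in young libraries. B cell markers, all 8 below 0, summed to 71.4 to 495 CPM in aged and 343 to 375 CPM in young libraries, and erythroid markers, all 8 below 0, to 6247 to 198216 CPM and 63941 to 312818 CPM. Of 11 T and NK cell markers 10 were above 0 (median 0.54), with 0 called by age alone and 2, the T cell genes Cd3g and Cd8a, called with the set term. Osteoblast markers, all 8 below 0 (median −0.65), summed to 669 to 2638 CPM in aged and 2332 to 6199 CPM in young libraries. Endothelial markers, 4 of 5 above 0, summed to 122 to 246 CPM in aged and 141 to 160 CPM in young libraries.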

How the data were processed

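Bulk RNA sequencing of 5 aged and 4 young mice was deposited as 1 table of 56980 genes. Its estimated counts per gene and library were not scaled to a common total, per the file headers and values, and these expected counts were rounded before testing. The TPM values were deposited by the authors and used only to order genes by level. The log2 fold changes and the p-values, raw and adjusted, were deposited by the authors from a DESeq2 comparison, the tool being named in the title of their table, and its settings are not given in the sources used here. Bowtie 0.12.2 and build mm8 are named without a role, per the submitters' processing notes. The authors' fold ratio column, gene lengths and mean TPM were not used.

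Ages, groups and replicate numbers came from the labels. The closest replicate pair differed beyond sampling noise (chi-square per gene of 15.3). Young 1 to 3 were far more alike, at 15.3 to 18.2, than the other replicates. Pairs of young 4 with these were at 257 to 317 and aged pairs at 104 to 463. Genes were tested with edgeR 4.0.16 (R 4.3.3), by its quasi-likelihood F statistic, over 16576 genes passing filterByExpr (minimum count 10, total 15), with TMM factors, a Benjamini-Hochberg threshold of 0.05 and two-sided p. SE is the log2 fold change over the square root of F. CPM uses TMM factors, with a prior count of 2 in log2 CPM. Alternatives used DESeq2 1.42.0 and limma 3.58.1. The fits were tested on simulated data. Figures were drawn with matplotlib 3.10.9 and pandas 2.3.3 under Python 3.11.15.

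The 10 genes, the lists and the library set were chosen with earlier results of these data known. Beyond the 10, the text names up to 4 genes with the smallest p of each list described, the 5 nearest profiles of Csf1r and Treml4, and the exceptions it states; a gene that this rule would name is not reported here. The biological coefficient of variation, which edgeR estimates apart from counting error, was 0.464 in the fit by age alone.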

Additional observations from a re-analysis of the deposited data

Results flagged for a closer look

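Cd14 in young 4, at 4.82 CPM, lay apart from the other 3 young libraries, at 5.31 to 5.37 CPM: its gap to the nearest was 0.882 of the group's range, above the limit of Dixon's test for 4 samples. Young 4 had 71 counts of this gene. The 10 genes gave 20 groups to look at, and chance gives about 1 such case in 20.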

How the results depend on the processing

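By age alone, edgeR called 0 genes, and 360 with DESeq2 (1 of the 10), 319 with the library set term, 2 within the 6 libraries, 1 with a Y-linked term, 5 with Y-linked and set terms, and 0 to 6 on leaving out a library. With the set term it called 319, and 118 scaled by totals, 997 without a filter (4 of the 10), 1604 with DESeq2 (5 of the 10), 5 with a Y-linked term, and 0 to 1633 on leaving out a library (0 to 4 of the 10). Replicate numbers were not taken as pairs: deviations of same-numbered libraries correlated at 0.46, 0.55 and 0.74 for numbers 1, 2 and 4 but at −0.39 for number 3, and 3 of 4 aged libraries correlated best with their own number. A replicate block gave 13 calls by age alone, and 1485 with the set term (4 of the 10: F13a1, Ms4a6c, Klf4 and Cd14). Signs turned for Irf8 (0.0207 by totals, 0.0048 by upper quartile, 0.0366 with the set term, 0.0473 within the 6 libraries, 0.0401 with a Y-linked term, 0.0338 within the 3, −0.0411 with set and Y-linked terms, −0.0868 to 0.0426 on leaving out a library), Treml4 (−0.0515 and, with the set term, −0.13 with the block, −0.23 within the 3 libraries, −0.00021 to 0.28 and, with the set term, −0.0334 to 0.28 on leaving out a library), Csf1r (−0.0274 within the 3), Cd68 (−0.49 within the 3, −0.0596 with set and Y-linked terms) and Adgre4 (−0.17 with set and Y-linked terms). With set and Y-linked terms the age effect compares aged 5 with the young libraries, after a set term that all libraries share. Aged 5 against young 1 to 3 directly gave Adgre4 0.18 in log2 CPM. The cause of these turns was not tested. Depth was at least 71 counts per gene and library.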

Other observations

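An integrin gene and a transcription factor gene of the dendritic cell list had the Cd300e profile. Itgax, the CD11c gene, had 239, 155, 16.7, 12.2 and 20.5 CPM in aged 1 to 5, against 17.4, 16.7, 17.5 and 10.7 CPM in young 1 to 4. Batf3, a factor gene of cross-presenting dendritic cells, had 30.7, 14.1, 0.981, 3.53 and 1.66 CPM in aged 1 to 5, against 0.304, 1.01, 0.924 and 1.09 CPM in young 1 to 4. Neither was called (edgeR adjusted p = 0.433 and 0.322). Xcr1, a chemokine receptor gene, averaged 1.34 CPM in aged and 0.54 CPM in young libraries, and Zbtb46, a factor gene of conventional dendritic cells, ran the other way at 9.82 and 14.96 CPM.

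C1qb, a complement C1q chain gene, had the smallest p of the resident macrophage list. It had 558, 327, 185, 115 and 69.6 CPM in aged 1 to 5, against 85.7, 85.5, 92.6 and 148 CPM in young 1 to 4, with the single highest values in aged 1 and 2 (log2 fold change 1.29, edgeR adjusted p = 0.539). Cd5l, a secreted macrophage protein gene, had 262, 179, 71.0, 71.4 and 42.0 CPM in aged 1 to 5, against 36.5, 55.2, 50.9 and 74.9 CPM in young 1 to 4 (adjusted p = 0.540).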
